A study of Mus musculus with 4 samples.

Results

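Zfp36, Zfp36l1 and Zfp36l2 encode the RNA-binding proteins of the mouse tristetraprolin family that are made in lymphocytes. These proteins carry a tandem pair of CCCH zinc fingers, bind AU-rich elements in the untranslated end of short-lived messages and recruit the CCR4-NOT deadenylase, so that the bound mRNA loses its poly(A) tail and is degraded. In T cells they are known for holding back cytokine messages after activation, and Zfp36l1 and Zfp36l2 act together in the orderly development of thymocytes. Their genes are small, lie on different chromosomes and are themselves induced rapidly by stimulation.

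The members were the peaks of 2 lists whose summit lay inside one of these 3 genes, or whose nearest annotated end of a protein-coding gene, at most 100 kb away, belonged to one of them. The study immunoprecipitated chromatin (ChIP-seq, in which an antibody pulls down a protein together with the DNA it holds) from splenic regulatory T cells (Treg cells) that were purified with a CD4+CD25+ kit and fixed for 10 min with 1% formaldehyde. The antibodies, 6 µg each, were against Eos, encoded by Ikzf4, and Helios, encoded by Ikzf2, a pair of zinc finger factors of the Ikaros family. The series has 4 libraries, 1 for each antibody in wild-type mice and 1 for each antibody in Eos knockout mice (Eos-flox x Foxp3-Cre, in which Cre is driven by Foxp3), and the lists used here are the 2 wild-type ones. The sources used here do not give the strain, age, sex or number of mice behind a library, and a peak list holds no expression by which the label Treg could be checked. By the rule, 9 of 1106 anti-Eos peaks (0.814%) and 3 of 469 anti-Helios peaks (0.640%) were members. Zfp36l2 had 6 anti-Eos and 3 anti-Helios summits, Zfp36l1 had 2 and 0, and Zfp36 had 1 and 0. The positions of these peaks chose the members, so their number is a description and was not tested. The remaining gene of the family, Zfp36l3, which is known from the rodent placenta, had 0 summits of either antibody, and its nearest anti-Eos and anti-Helios summits were 2680 kb away in both lists.

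Fold enrichment is the authors' value for each peak, a ratio over local background. The sources used here do not name a control library or state that one was used. Enrichment over input DNA and enrichment over knockout chromatin therefore cannot be told apart. The fold is used below to place a peak within its own list, whose medians were 7.31 for anti-Eos and 7.66 for anti-Helios. The number of fragments at a summit, worked out from the fold and p-value of its peak, is given with an exact 95% Poisson interval that covers counting error only. The local background, worked out in the same way, is an inferred rate and not a count, and is given in background fragments. It is on the scale of fragments multiplied by 1 for anti-Eos and by 0.895 for anti-Helios, whereas the fragment numbers are unscaled. The list medians were 14 fragments for anti-Eos and 18 for anti-Helios. With 1 library for each antibody there was no replicate error, and every comparison describes these libraries only.

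The sequence of the start of Zfp36l1 is shown because 2 anti-Eos peaks touch it, and that of Zfp36 because no peak does. Of the 3 family genes of the rule, 2 had an entry in the promoter table used (RefSeq, GRCm38.p6), Zfp36 and Zfp36l1, and the entry of each runs from 250 bases before its start site to 50 bases after it. Both genes lie on the minus strand, and the sequences read 5′ to 3′ on that strand, at chr12:80112964-80113263 and chr7:28379179-28379478. Capitals mark bases inside a deposited peak.

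Zfp36l1: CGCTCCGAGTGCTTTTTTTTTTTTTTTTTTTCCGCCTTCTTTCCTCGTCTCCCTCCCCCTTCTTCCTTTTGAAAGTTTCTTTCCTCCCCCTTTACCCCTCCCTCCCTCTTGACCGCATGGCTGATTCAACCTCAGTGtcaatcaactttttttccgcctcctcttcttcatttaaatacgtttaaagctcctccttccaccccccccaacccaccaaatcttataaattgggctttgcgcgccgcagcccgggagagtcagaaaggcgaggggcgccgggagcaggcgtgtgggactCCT

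Zfp36: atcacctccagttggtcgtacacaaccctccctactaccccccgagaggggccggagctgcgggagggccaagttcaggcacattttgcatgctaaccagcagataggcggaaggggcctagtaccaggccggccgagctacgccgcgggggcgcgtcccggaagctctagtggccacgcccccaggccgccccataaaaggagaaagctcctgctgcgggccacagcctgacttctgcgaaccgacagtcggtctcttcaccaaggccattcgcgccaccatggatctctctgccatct

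The core letters of the Ikaros family site, GGGAA, and its reverse complement TTCCC were searched on both strands. Neither occurred in the Zfp36l1 or the Zfp36 window, whereas 62.7% of the 32851 windows of the table held at least 1 match. The longer form TGGGAA, which contains GGGAA, was found in 25.6% of all windows and in neither of these 2. Among windows that held a summit, GGGAA was present in 79.0% of 314 with an anti-Eos summit and in 79.5% of 185 with an anti-Helios summit. The missing letters say nothing about the rest of the peaks, which extend beyond the window. The Zfp36l1 window had a GC content of 52.0%, higher than 46.6% of all windows, and the Zfp36 window one of 63.7%, higher than 79.1%.

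Zfp36l2, which encodes the member also known as TIS11D, is annotated at chr17:84183924-84187947 and is 4024 bp long. It lies between Haao, 334.9 kb below its start, and Thada, 2.11 kb above its end. Its 6 anti-Eos and 3 anti-Helios summits fell into 3 places: a distal place below the gene, a place beside its lower end, and a place at its higher end. From the lowest to the highest anti-Eos summit the cluster spanned 72.1 kb, and from the lowest to the highest anti-Helios summit 72.0 kb. Anti-Eos peaks were found at all of the 3 places, and anti-Helios peaks at the distal place and the higher end only. In the whole anti-Helios list, 9 stretches of the genome held 3 summits within 72.0 kb, this one included. In the anti-Eos list this was the only stretch with 6 summits within 72.1 kb. Both distances were taken from this cluster itself.

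At the higher end of Zfp36l2 both antibodies gave 2 peaks. The inner anti-Eos peak (chr17:84187730-84187872) had its summit inside the gene, 143 bp from the end, with a fold of 5.89 and 9 fragments (4.12 to 17.1). The inner anti-Helios peak (chr17:84187616-84187928) had its summit 149 bp from the same end, also inside the gene, with a fold of 5.41 and 17 fragments (9.90 to 27.2). The summits of this pair were 6 bp apart, against a median of 30 bp between the summits of all overlapping pairs, and the fold was low in each list, above that of 22.5% of anti-Eos and 10.7% of anti-Helios peaks. The local background was 0.697 background fragments for anti-Eos and 2 for anti-Helios, values of separate libraries on different scales.

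The outer anti-Eos peak at this end (chr17:84188456-84188597) had its summit 595 bp outside the gene, with a fold of 5.80 and 13 fragments (6.92 to 22.2). The outer anti-Helios peak (chr17:84188237-84188562) lay 520 bp outside, with a fold of 8.17 and 15 fragments (8.40 to 24.7). This was the highest anti-Helios fold of the family, above 63.1% of its list, whereas the anti-Eos fold at the same place ranked 883 of 1106. The summits were 75 bp apart. Both lay within the long non-coding RNA gene Gm36279, which begins at 84188044, in the interval between Zfp36l2 and Thada. The 2 anti-Eos summits of this end were 738 bp apart and the 2 anti-Helios summits 669 bp apart. Across the anti-Helios list, 5 places held 2 summits at most 669 bp apart. The others were at B4galnt1, at Mob1b, at Gm34296 and between Bbip1 and Shoc2.

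Beside the lower end of Zfp36l2 there were 2 anti-Eos peaks and no anti-Helios peak. The stronger one (chr17:84180777-84181008) had a fold of 8.75, above 70.1% of the list, with 16 fragments (9.15 to 26.0) and a summit 2950 bp below the start. The weaker one (chr17:84181589-84181765) had a fold of 5.15, above 8.05% of the list, with 9 fragments (4.12 to 17.1) at 2184 bp. The local background was 0.943 background fragments at both, and both summits lay within the long non-coding RNA gene Gm41640. With the pair at the higher end, 4 anti-Eos summits fell within 7.57 kb around this gene. Only 1 other place in the anti-Eos list held 4 summits within that distance, at Ppp1ca and Tbc1d10c on chromosome 19. The distance was taken from the summits of Zfp36l2, which was chosen for its number of peaks, so this count is a description and was not tested.

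The distal place lay outside annotated genes, 67.5 kb below Zfp36l2, where the nearest gene of any kind was the long non-coding RNA gene Gm19696 at 17557 bp. The stronger anti-Eos peak there (chr17:84116380-84116721) had the highest fold of all family peaks, 10.5, with 21 fragments (13.0 to 32.1) over 1.10 background fragments. The overlapping anti-Helios peak (chr17:84116461-84116826) had a fold of 5.70 with 18 unscaled fragments (10.7 to 28.4). Its background was 2 background fragments on the scaled count, and the summits were 39 bp apart. In rank order the place stood high for anti-Eos, above 85.6% of the list, and low for anti-Helios, above 14.7% of the list. The fragment intervals overlapped, but they are unscaled counts of separate libraries with list medians of 14 and 18 fragments. Their overlap therefore cannot show whether the antibodies differed at this place, which was not tested. A second anti-Eos peak (chr17:84119461-84119622), 3028 bp from the first summit, was the weakest of the family, with a fold of 4.50 and 12 fragments (6.20 to 21.0). It had no anti-Helios partner and stood above only 3.07% of the anti-Eos list. These distal peaks are counted for Zfp36l2 because no other protein-coding gene has a nearer end.

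**Figure D1:**
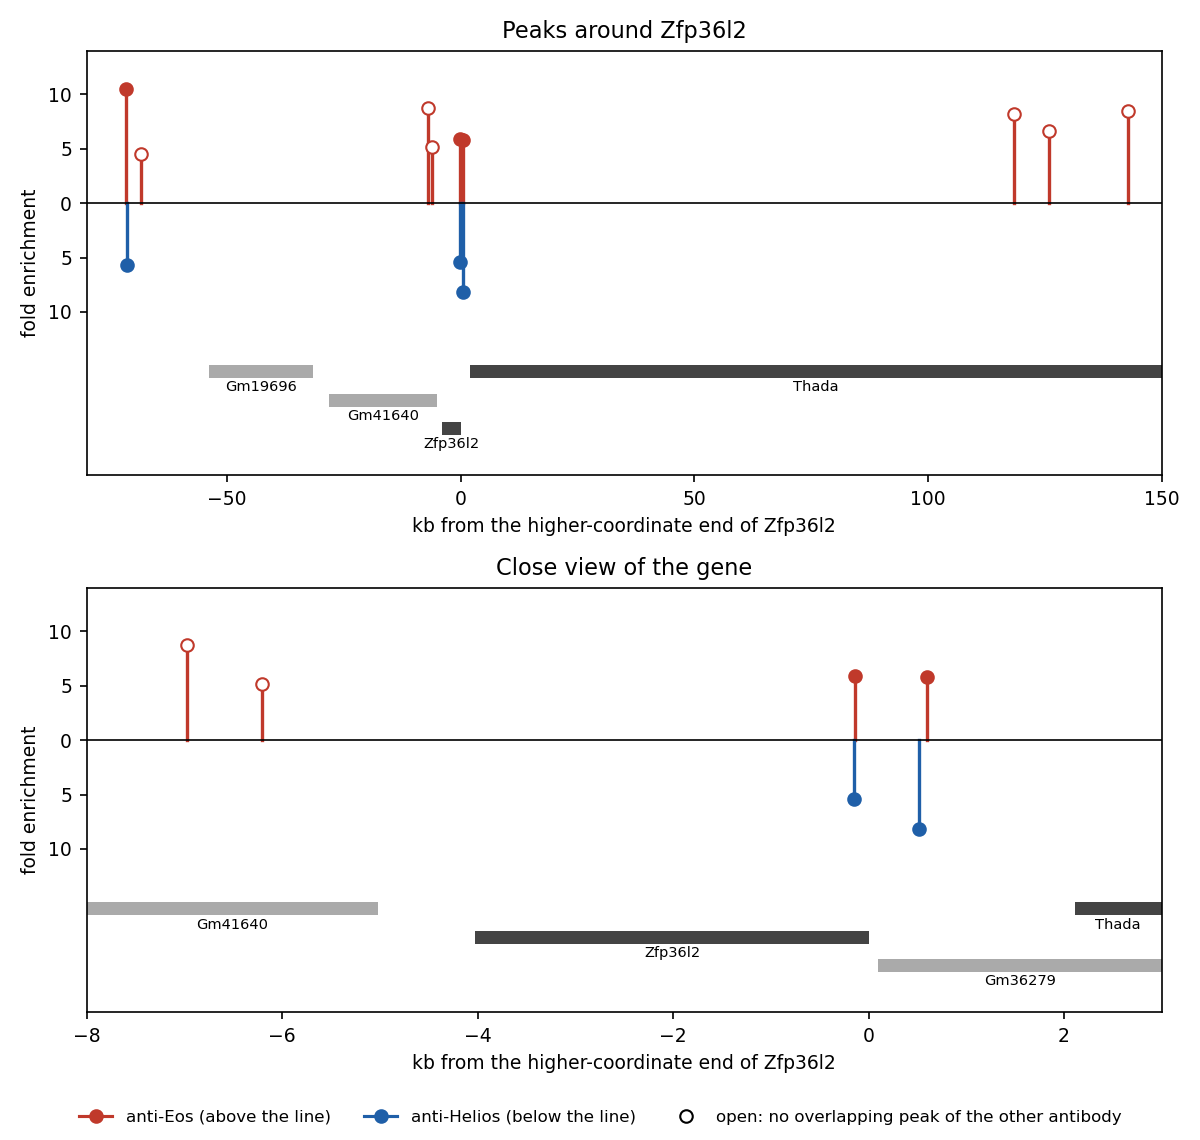
Summits around Zfp36l2 by distance from its higher-coordinate end in kb, with fold enrichment on the vertical axis, anti-Eos upward and anti-Helios downward; filled points overlap a peak of the other antibody, dark boxes are protein-coding genes and grey boxes long non-coding RNA genes. The shared peaks stand at the higher end of the gene and at the distal place, and the 2 anti-Eos peaks beside the lower end stand alone; the 3 anti-Eos peaks on the right lie within Thada and are not members.

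The distal place, at 67.5 kb, lay within the limit of 100 kb. The next peak of the chromosome on the other side was an anti-Eos peak within Thada at 118.4 kb from Zfp36l2 (fold 8.19). The nearest end to that peak was one of Thada, 116.3 kb away, so it would not count for Zfp36l2 at any limit. No summit within 100 kb of Zfp36l2 was assigned to another gene. Where genes of every biotype could take a summit, the long non-coding RNA genes took all but the inner peaks, and Zfp36l2 kept 1 anti-Eos and 1 anti-Helios summit.

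Over all 21887 protein-coding genes, 4.04% had at least 1 assigned anti-Eos summit and 1.91% at least 1 anti-Helios summit. These counts over all genes go by the nearest end only. Counting a summit for every gene it lies in as well, an alternative chosen after seeing the data, left Zfp36l2 with 6 anti-Eos and 3 anti-Helios summits, level with or below the same genes for anti-Helios and no other gene for anti-Eos. All 3 family genes were among those with an anti-Eos summit and Zfp36l2 alone among those with an anti-Helios summit. At least 6 anti-Eos summits were assigned to 1 gene, Zfp36l2 (0.00457% of genes), and at least 3 anti-Helios summits to 3 genes (0.0137%). The gene next in number was Septin9, a cytoskeletal GTPase gene of 162.7 kb, with 5 anti-Eos and 1 anti-Helios summits. Its anti-Eos summits all lay inside the gene and spanned 41.7 kb. The genes level with or above Zfp36l2 for anti-Helios were Gm34296, with 3 summits, and Sfi1, a centrosome gene, with 8. At the anti-Helios peaks of Sfi1 the local background ranged from 12 to 37 background fragments, against 0.767 to 2 at those of Zfp36l2. Zfp36l2 led the anti-Eos list largely through weaker peaks. With a -log10 q of at least 3 it held 5 anti-Eos summits, and 2 genes, itself included, held at least that many. With a -log10 q of at least 5, Zfp36l2 held 2 anti-Eos summits. Then 11 genes held more, with a highest count of 3, and 77 genes, Zfp36l2 included, held at least as many. For anti-Helios it then held 2, with 1 gene above it and 19 genes, itself included, at that count or above.

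**Figure D2:**
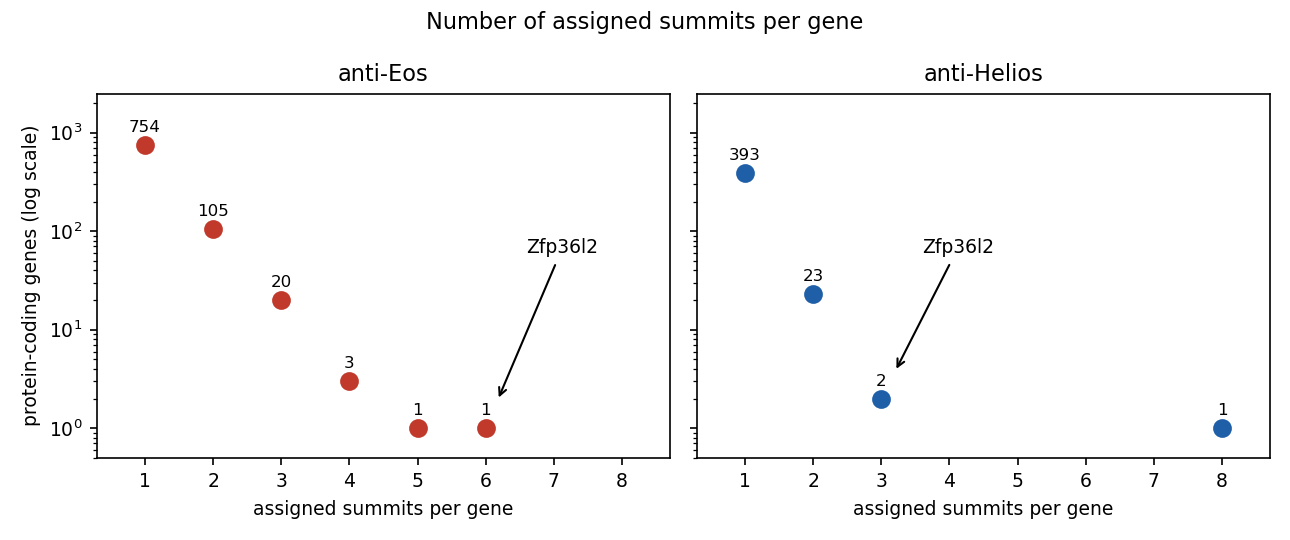
Number of protein-coding genes (log scale) by number of assigned summits, for anti-Eos on the left and anti-Helios on the right, with the number of genes above each point and genes without a summit left out. Zfp36l2 is the single gene with 6 anti-Eos summits and 1 of 2 genes with 3 anti-Helios summits.

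Zfp36l1, which encodes the member also known as TIS11B, is annotated at chr12:80107760-80113013 (5254 bp) and carried 2 anti-Eos peaks on either side of its start site. The peak inside the gene (chr12:80112809-80112966) had a fold of 10.3, with 17 fragments (9.90 to 27.2) and its summit 115 bp after the start site. The peak before the gene (chr12:80113127-80113452) had a fold of 9.14, with 15 fragments (8.40 to 24.7) and its summit 145 bp before the start site. These were high values for the list, above 84.3% and 74.7% of anti-Eos folds. In the sequence above, the outer peak covers bases 1 to 137, with its summit at base 106, in a stretch of which 81% was C or T on the printed strand (49.6% over all windows), and the inner peak only bases 298 to 300. The 160 bases between the peaks belonged to neither. The summits were 260 bp apart, and 3 of 1085 pairs of adjacent anti-Eos summits in the whole list, this pair included, were at most as far apart.

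No anti-Helios peak overlapped either of them, and the nearest anti-Helios summit was 160.4 kb from Zfp36l1. A peak list shows only places that passed the caller's threshold, and the smallest -log10 q listed was 2.24 for anti-Helios, so weaker anti-Helios signal at Zfp36l1 was not detectable here. Another anti-Eos peak (chr12:80115578-80115844, fold 6.17, 11 fragments, 5.49 to 19.7) lay 2.78 kb above Zfp36l1. It was within the predicted protein-coding gene Gm52006, to which it was assigned, and so is not a member. Gm52006 begins 567 bp from the start site of Zfp36l1.

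Zfp36, which encodes tristetraprolin, is annotated at chr7:28376784-28379228 (2445 bp) between Plekhg2 and Med29. Its single anti-Eos peak (chr7:28375555-28375703) had a fold of 6.62, above 35.2% of the list, with 15 fragments (8.40 to 24.7) over 1.42 background fragments. As the gene lies on the minus strand, the summit stood 1116 bp beyond its 3′ end, not at its start. No peak touched the promoter window printed above. The peak just outside the rule was another anti-Eos peak (fold 5.54, 15 fragments, 8.40 to 24.7), whose summit was 156 bp from the end of Plekhg2, a guanine nucleotide exchange factor gene, and 3.95 kb from Zfp36. No anti-Helios summit lay within 100 kb of Zfp36.

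**Figure D3:**
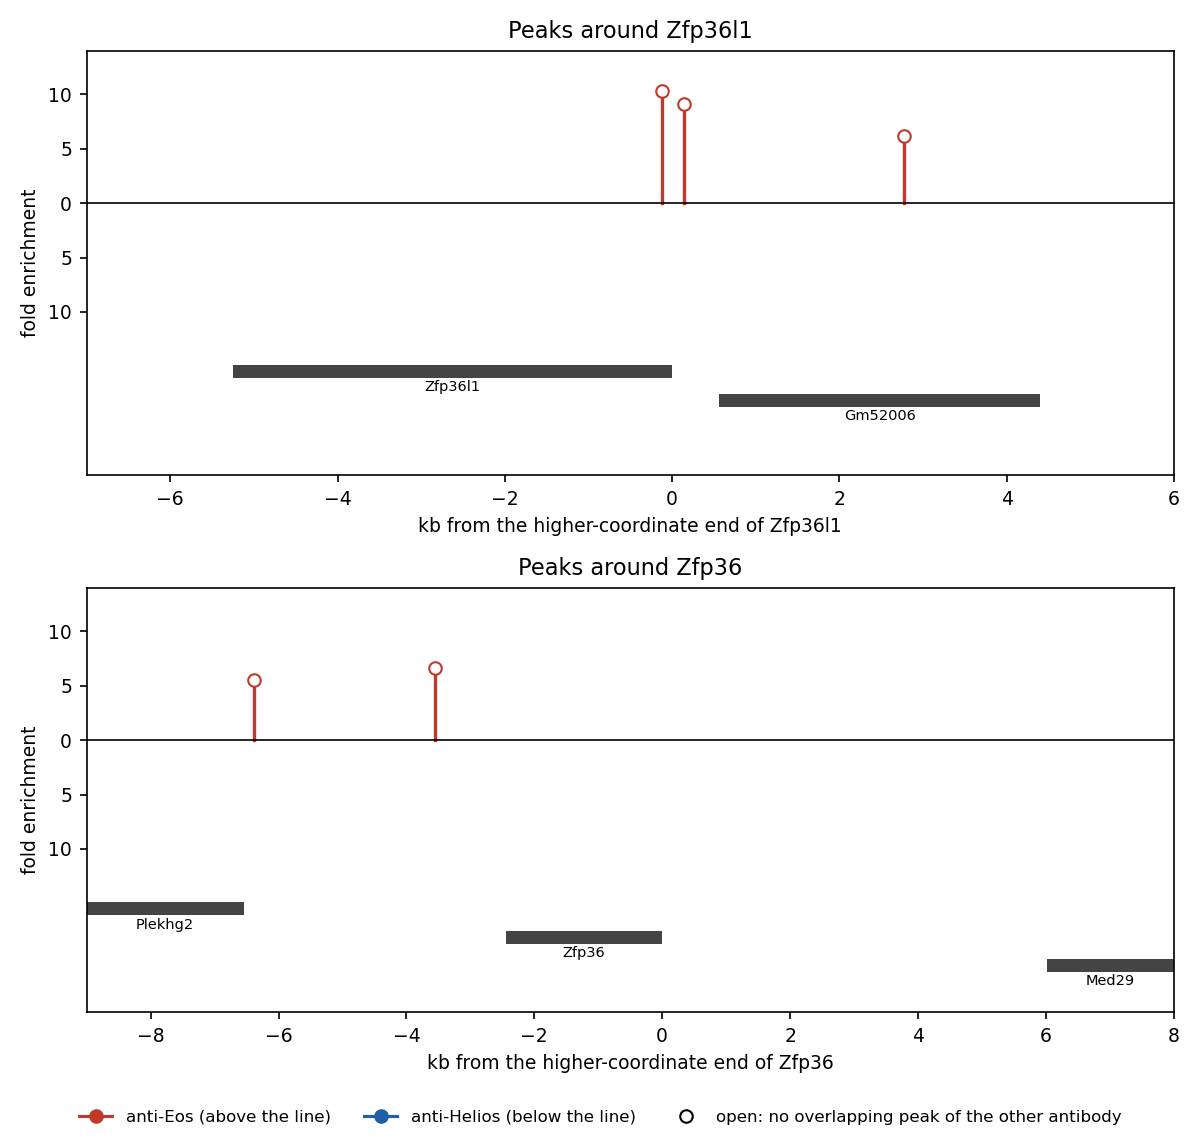
Summits around Zfp36l1 (top) and Zfp36 (bottom) by distance from the higher-coordinate end of each gene in kb, which is the start site of both, with fold enrichment on the vertical axis. All points are anti-Eos and open, meaning that no anti-Helios peak overlaps them; the 2 Zfp36l1 peaks flank the start site and the Zfp36 peak lies below the gene's 3′ end.

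As a group, the 9 anti-Eos peaks had folds of 4.50 to 10.5 with a median of 6.62, against 7.31 in the whole list, and 4 of 9 were above the list median. The 3 anti-Helios peaks had folds of 5.41 to 8.17 with a median of 5.70, against 7.66, and 1 of 3 was above the list median. Fragments ranged from 9 to 21 for anti-Eos and from 15 to 18 for anti-Helios, so the family held none of the deep peaks of either list, which reached 106 and 124 fragments. The family was chosen for the number of peaks at Zfp36l2, and its highest fold stood above 85.6% of its list. An overlapping anti-Helios peak was found for 3 of 9 anti-Eos peaks, beside 27.9% of all anti-Eos peaks, and an overlapping anti-Eos peak for 3 of 3 anti-Helios peaks, beside 65.9% of all anti-Helios peaks. Summits lay within 1 kb of a gene end for 4 of 9 anti-Eos peaks (39.5% in the list) and for 2 of 3 anti-Helios peaks (51.0% in the list). With so few members no difference from the lists can be read from these shares.

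**Figure D4:**
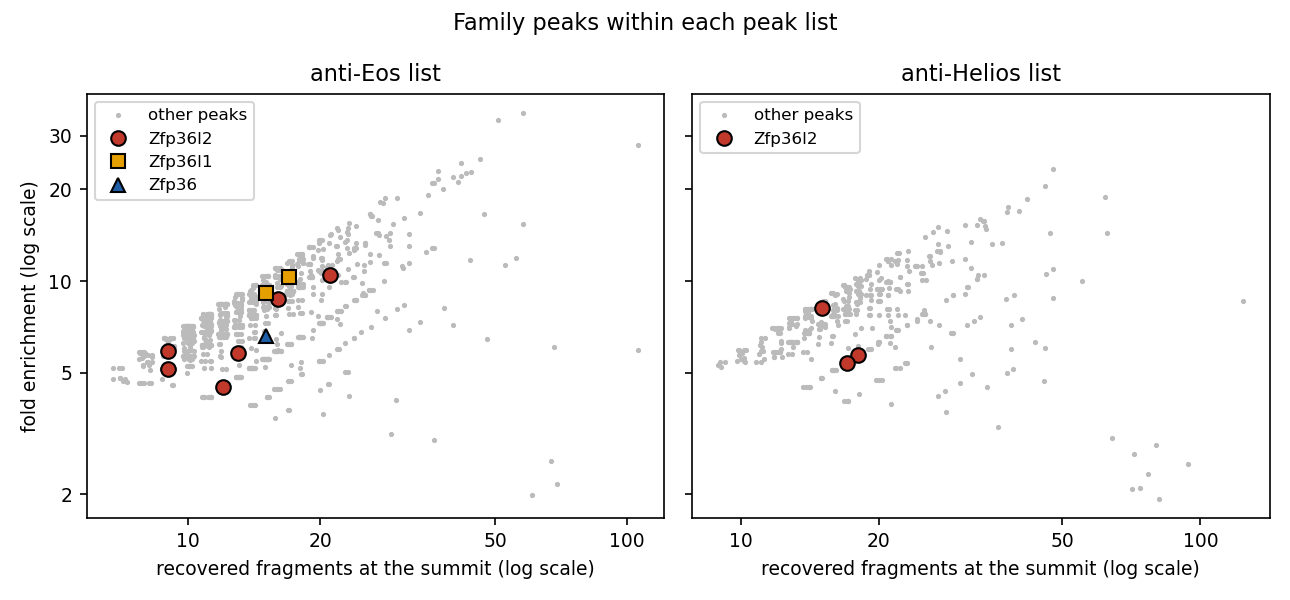
Fold enrichment against recovered fragments at the summit (both log scale) for every peak of the anti-Eos list (left) and the anti-Helios list (right), with family peaks as large symbols. The family peaks sit among the others, between 9 and 21 fragments for anti-Eos and between 15 and 18 for anti-Helios; the bands are whole numbers of fragments, spread sideways by a small random amount for the grey points.

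The other genes of the decay pathway were taken as 5 lists of 86 genes in all. An anti-Eos summit was assigned to 11 of 86 (12.8%, beside 4.04% of all protein-coding genes) and an anti-Helios summit to 6 of 86 (6.98%, beside 1.91%). Summits of both antibodies were at 4 of 86, beside 1.38% of all protein-coding genes. The lists were chosen with earlier results of these data known, and the counts were not tested.

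Of 14 genes for kinases, phosphatases and adaptors that act on ZFP36 proteins, 5 had an anti-Eos summit (35.7%, beside 4.04% of all protein-coding genes) and 4 an anti-Helios summit (28.6%, beside 1.91%). Summits of both antibodies were at 3 of the 14, beside 1.38% of all protein-coding genes. Ppp2r1a, which encodes the scaffold subunit of protein phosphatase 2A, the enzyme that reactivates phosphorylated tristetraprolin, had folds of 12.9 with anti-Eos (24 fragments) and 9.45 with anti-Helios (20 fragments), with summits 9 and 10 bp from an end. Ppp2ca, its catalytic subunit gene, had folds of 5.48 and 9.90, each 167 bp from an end (20 and 21 fragments). Mapk14, which encodes the p38α kinase, had folds of 5.89 and 10.1 at 77 and 32 bp (16 and 18 fragments). At each of these 3 genes the anti-Eos and anti-Helios peaks overlapped. Mapkapk2, the kinase downstream of p38α that phosphorylates tristetraprolin, had an anti-Eos peak within the gene (8.75, 16980 bp from an end). Ywhaz, a 14-3-3 gene, had 2 anti-Eos summits (highest fold 6.79). Dusp1, whose product switches off p38α, had an anti-Helios peak alone (6.32, 337 bp from an end).

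Of 18 deadenylation genes, 2 had an anti-Eos summit (11.1%, beside 4.04% of all protein-coding genes) and 2 an anti-Helios summit (11.1%, beside 1.91%). None of them was at a gene for a CCR4-NOT subunit, and most protein-coding genes likewise had none. Btg1 and Btg2, whose products recruit CCR4-NOT, had anti-Eos summits 71159 bp (10.1, the higher of 2) and 10934 bp (6.95) from an end. Btg2 also had an anti-Helios peak inside the gene, 114 bp from an end (5.65), which did not overlap the anti-Eos one. Pan3, a subunit gene of the PAN2-PAN3 deadenylase, had an anti-Helios peak alone (8.39), with its summit 16 bp before a RefSeq start site although 3932 bp from the annotated end of the gene. Of 17 decapping genes, 1 had a summit, Lsm4 (anti-Eos, 6.57; 5.88% of the list, close to the 4.04% of all protein-coding genes), and of 15 exosome genes 0. Among 22 genes for other RNA-binding regulators of stability, Arid5a (10.2), Zc3h12a (7.12), which encodes the endonuclease Regnase-1, and its relative Zc3h12d (5.20) had an anti-Eos summit (3 genes, 13.6%, beside 4.04%). The anti-Helios list had 0 in this group, beside 1.91% of all protein-coding genes.

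Of 40 genes whose messages carry AU-rich elements or are known targets of the family, 11 had an anti-Eos summit (27.5%, beside 4.04% of all protein-coding genes) and 4 an anti-Helios summit (10.0%, beside 1.91%). Summits of both antibodies were at 3 of the 40, beside 1.38% of all protein-coding genes. Socs1, a feedback inhibitor of cytokine signalling, had the highest folds, 21.9 with anti-Eos and 20.5 with anti-Helios, at overlapping peaks. Socs3 and Fos had summits of both antibodies whose highest peaks did not overlap. Tnf, the best known target of tristetraprolin, had an anti-Eos peak (11.5, 17 fragments) with its summit 9 bp from the start site, and no anti-Helios peak. Nfkbia (7.90, 242 bp from an end) and Mcl1 (7.50, the higher of 2) also had anti-Eos summits without an anti-Helios one. This Mcl1 summit was 1819 bp from an annotated end of the gene, although 42 bp after a RefSeq start site. Cd69, Egr1, Icos, Notch1 and Nr4a1 had anti-Eos summits alone too, with the highest peak farther than 1 kb from an end and highest folds of 4.85 to 9.09. Cytokine genes of the list other than Tnf, among them Il2, Ifng, Il10 and Csf2, had no summit in either list. Only 4.04% and 1.91% of all protein-coding genes had an anti-Eos or anti-Helios summit, so nothing can be read from an absence at a few genes.

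**Figure D5:**
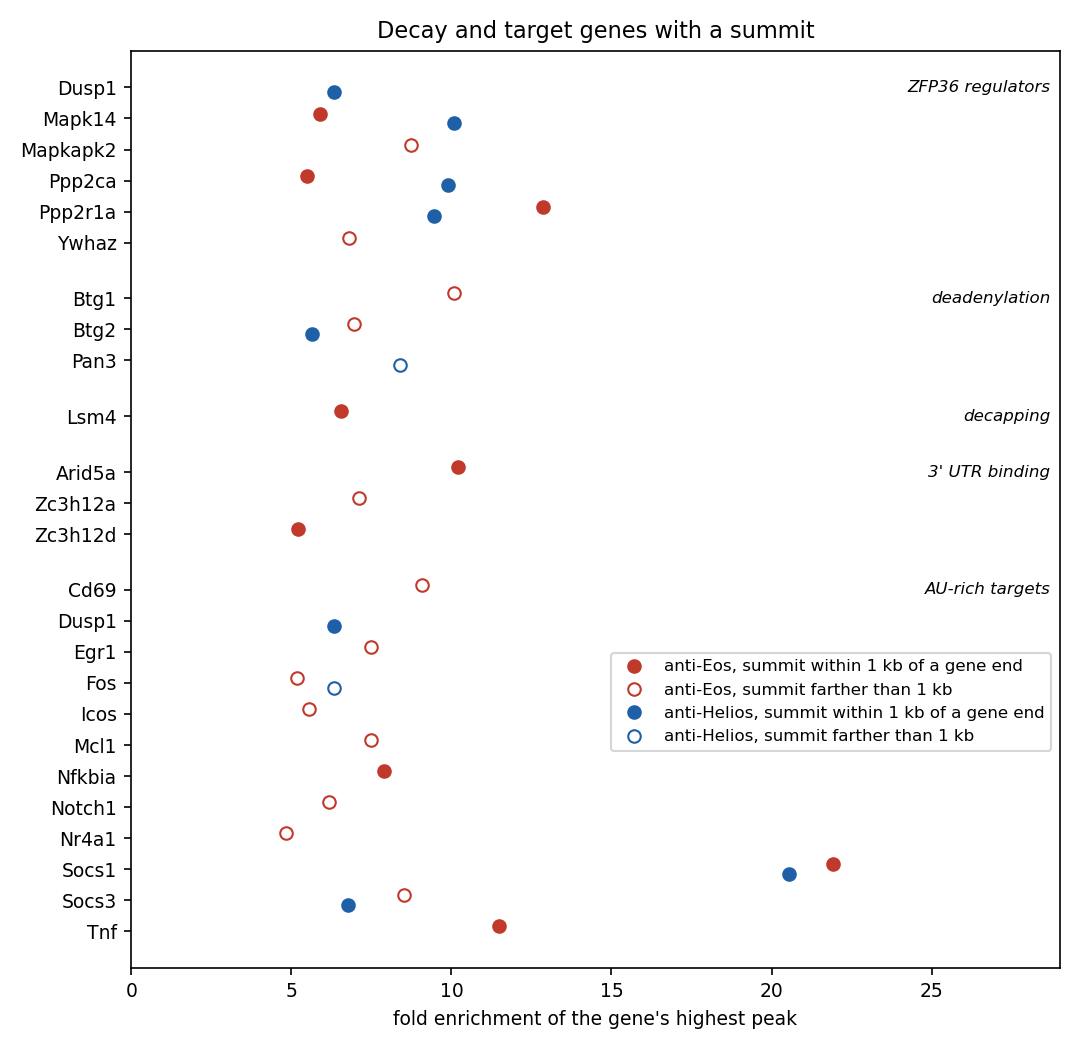
Fold enrichment of the highest anti-Eos and anti-Helios peak of each listed gene that has a summit, grouped by list; filled points have their summit within 1 kb of an annotated end and open points farther away. Filled points of both antibodies are seen at Mapk14, Ppp2ca, Ppp2r1a and Socs1, where the peaks also overlap, although overlap is not drawn. Dusp1 appears in 2 lists.

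The promoters of Ppp2r1a and Tnf are shown as places where the peaks cover a start site, from RefSeq (GRCm38.p6), for Ppp2r1a on the plus strand at chr17:20945204-20945503 and for Tnf on the minus strand at chr17:35201958-35202257. Capitals again mark bases inside a deposited peak of either antibody.

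Ppp2r1a: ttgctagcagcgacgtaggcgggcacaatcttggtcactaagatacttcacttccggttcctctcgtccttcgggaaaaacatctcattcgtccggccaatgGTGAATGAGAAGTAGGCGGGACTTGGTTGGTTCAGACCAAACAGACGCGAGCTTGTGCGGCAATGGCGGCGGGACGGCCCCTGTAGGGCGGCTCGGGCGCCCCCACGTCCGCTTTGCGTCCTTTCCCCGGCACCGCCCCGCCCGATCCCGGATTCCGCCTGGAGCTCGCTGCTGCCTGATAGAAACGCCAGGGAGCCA

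Tnf: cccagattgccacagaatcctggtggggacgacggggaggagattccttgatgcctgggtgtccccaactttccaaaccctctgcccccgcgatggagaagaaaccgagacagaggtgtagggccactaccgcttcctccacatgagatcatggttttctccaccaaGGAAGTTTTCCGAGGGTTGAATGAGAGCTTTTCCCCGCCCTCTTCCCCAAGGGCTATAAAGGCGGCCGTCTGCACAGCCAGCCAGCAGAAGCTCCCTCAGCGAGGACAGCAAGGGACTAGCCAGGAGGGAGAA

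In the Ppp2r1a window the anti-Eos peak covers bases 103 to 300 and the anti-Helios peak bases 186 to 300, with summits at bases 260 and 261. GGGAA occurs at bases 73 to 77, outside both peaks, and TTCCC at bases 225 to 229, inside both. In the Tnf window the anti-Eos peak covers bases 168 to 300, with its summit at base 260, and TTCCC occurs inside it at bases 198 to 202 and 210 to 214.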

How the data were processed

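The authors deposited 1 peak list per wild-type library; both knockout libraries are left out (not analysed here). The tools listed, per the submitters' processing notes, were BWA 0.7.1, cutadapt 4.4, SAMtools 1.17, Picard and deepTools 3.5.1, with build mm10 (GRCm38.p6). The sources used here name neither a peak caller nor a control. Each deposited line holds the authors' fold (a ratio over local background), -log10 p, -log10 q, a score (10 times the -log10 q, cut to a whole number, at every peak) and the summit offset, another number in bp. The 2 lists were called separately.

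Fragments were recovered by solving fold = (scaled fragments + 1)/(background + 1) together with an upper Poisson tail for p, which fitted 100% of peaks of both lists to within 0.0001 of the value. No source states that formula, which was inferred. Fragments were scaled by 1 (anti-Eos) and 0.895 (anti-Helios). The solution was unique for all family peaks. The recovery was tried on simulated peaks made with the same formula, so that check cannot show whether the formula holds for the deposited lists. The assignment was checked only for the distance of simulated summits placed on gene starts.

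Gene ends came from the RefSeq table of GRCm38.p6. It gives no strand, which was taken from the promoter table, and no exons, so exon and intron were not assigned. Overlap meant at least 1 bp. The family and gene lists were chosen with earlier results of these data known. Named genes were the family and its neighbours, genes with at least 5 anti-Eos summits, listed genes with summits in both lists and, of the other listed genes with a summit, up to 10 per list and antibody by fold, which took in all of them. Sfi1, Gm34296, the other places with close summits and listed genes without a summit were chosen after their values were seen. No test was run, because the rule used the same peak positions. Python 3.11.15, pandas 2.3.3, NumPy 2.4.6, SciPy 1.17.1 and Matplotlib 3.10.9 were used. Alternatives were stricter -log10 q minimums, other distance limits, genes of every biotype and other definitions of overlap.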

Additional observations from a re-analysis of the deposited data

How the results depend on the processing

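Of 74 alternative values, 60 were within 1.5 times the reported count. With a -log10 q of at least 5, the anti-Eos counts became 5 summits for the family, 2 for Zfp36l2, 1 overlapping peak and 2 summits within 1 kb of a gene end, and the anti-Helios counts became 1 overlapping peak, 1 summit within 1 kb of a gene end and 2 AU-rich target genes with a summit. With genes of every biotype, 4 anti-Eos summits and 1 anti-Helios summit counted for the family and 1 of each for Zfp36l2, since long non-coding RNA genes with nearer ends took the others. When overlap had to cover at least 50% of both peaks, 1 family peak of each list overlapped. Within 500 bp of a gene end there was 1 anti-Helios summit. None of these alternative values moved by over 1.5 times with a -log10 q of at least 3, with limits of 10 or 500 kb or with the nearest end only. The same held with summits inside a gene also counted for that gene over all genes (chosen after seeing the data). It also held with every summit within 100 kb of Zfp36l2, with summits within 100 bp or with 2 kb as near. The number of genes with at least as many anti-Eos summits as Zfp36l2 was not among the values taken at a -log10 q of at least 3. It was 2 there, Zfp36l2 included, against 1 without that minimum. No paired analysis was possible because each group has 1 library, and no replicate could be left out. Most family peaks rest on under 20 fragments, so their order by fold is imprecise, and places below the callers' threshold were not listed.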

Other observations

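Thada, the large neighbour of Zfp36l2, which encodes a protein of tRNA methylation, held 3 further anti-Eos peaks deep within the gene, at 118.4, 125.8 and 142.8 kb from Zfp36l2. Their folds were 8.19, 6.61 and 8.47, with 17, 10 and 13 fragments, and no anti-Helios peak overlapped any of them. They lay more than 100 kb from every annotated end of a protein-coding gene, and so the assignment by nearest end gave them to none, although they are inside Thada.

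At the end of Plekhg2 next to Zfp36, the anti-Eos summit lay outside the gene and close to a tRNA gene, n-TIaat16, which begins at 28372999, against a summit at 28372837.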
